A study of Mus musculus with 10 samples.

Results

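The Ms4a genes examined here are 8 members of the membrane-spanning 4-domains subfamily A, namely Ms4a4a, Ms4a4b, Ms4a4c, Ms4a6b, Ms4a6c, Ms4a6d, Ms4a7 and Ms4a8a. They were chosen by symbol among the 22607 genes of the deposited tables, and all 8 passed the filter on low counts in both sets of libraries. The study sorted antigen-presenting cells from 8-week-old wild-type C57BL/6 mice and sequenced their polyadenylated RNA in 10 libraries, 5 groups of 2. The first set held colonic and splenic cells positive for MHC class II (MHCII+). The second held 3 colonic populations sorted on the integrins CD11b, common on macrophages, monocytes and granulocytes, and CD11c, common on dendritic cells: CD11b+CD11c+ cells, CD11b+ cells and CD11c+ cells. The mice of all groups were untreated as far as the labels say. The tissue of each group was read from abbreviated titles together with the design text. Whether replicate libraries stem from different mice is not stated, so each p-value measures the spread between libraries alone, and that spread may be technical.

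MS4A proteins cross the membrane several times, have both ends in the cytosol and sit in the membranes of blood and tissue leukocytes. The best-known relatives are Ms4a1, which encodes the B cell antigen CD20, and Ms4a2, which encodes the beta chain of the high-affinity IgE receptor. Many members act as adaptors that tune a neighbouring receptor. MS4A4A associates with the fungal receptor Dectin-1 (Clec7a) in mouse macrophages, and human MS4A4A has been tied to the level of soluble TREM2. Ms4a4b is known from mouse T cells, where its product associates with GITR (Tnfrsf18). Ms4a7 marks border macrophages of the mouse brain. Ms4a8a has been described in alternatively activated mouse macrophages and in differentiated mouse colonic epithelium.

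All 8 genes lie in 1 cluster on mm10 chromosome 19. In order along the chromosome they are Ms4a8a (ENSMUSG00000024730.7, minus strand, 11067471 to 11081102), Ms4a7 (ENSMUSG00000024672.11, minus strand, 11321039 to 11336146) and Ms4a4a (ENSMUSG00000101389.1, plus strand, 11375523 to 11392790). Next come Ms4a4c (ENSMUSG00000024675.19, plus strand, 11404770 to 11427246), Ms4a4b (ENSMUSG00000056290.16, plus strand, 11443553 to 11467055) and Ms4a6c (ENSMUSG00000079419.4, plus strand, 11469366 to 11482192). Ms4a6b (ENSMUSG00000024677.13, plus strand, 11516512 to 11531256) and Ms4a6d (ENSMUSG00000024679.10, minus strand, 11586604 to 11604849) close the series. All are annotated as protein coding. The values come from coding sequences, except that a retained-intron transcript of 399 bases held 6.42% of the counts of Ms4a6b, which its CPM include and the TPM below leave out.

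Some of these genes are near copies of each other, which bears on how reads could be told apart. The coding sequences of Ms4a4b and Ms4a4c were aligned over 681 bases and were identical at 625 of them (91.8%). Ms4a6b matched Ms4a6c at 85.7% of aligned bases and Ms4a6d at 81.3%. The first 120 coding bases of both pairs are shown 5′ to 3′, with the bases that differ within a pair in capitals, because these differences are what separates their reads.
Ms4a4b: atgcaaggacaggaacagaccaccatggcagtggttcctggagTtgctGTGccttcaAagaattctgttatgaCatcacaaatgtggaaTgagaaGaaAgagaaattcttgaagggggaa
Ms4a4c: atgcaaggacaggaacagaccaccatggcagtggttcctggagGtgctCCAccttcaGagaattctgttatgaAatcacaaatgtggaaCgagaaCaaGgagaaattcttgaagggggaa
Ms4a6b: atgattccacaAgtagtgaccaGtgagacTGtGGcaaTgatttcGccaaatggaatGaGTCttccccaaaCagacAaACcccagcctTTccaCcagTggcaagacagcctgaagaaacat
Ms4a6c: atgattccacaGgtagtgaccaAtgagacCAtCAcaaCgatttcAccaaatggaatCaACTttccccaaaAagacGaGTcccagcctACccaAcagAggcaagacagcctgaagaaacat
These stretches, rebuilt from the GENCODE M21 annotation on mm10, differ at 9 bases between Ms4a4b and Ms4a4c and at 20 bases between Ms4a6b and Ms4a6c. Of all stretches of 31 bases in a coding sequence, 20.1% in Ms4a4b, 26.6% in Ms4a4c, 18.01% in Ms4a6b, 10.6% in Ms4a6c and 11.9% in Ms4a6d also occur in another gene. Some of those of Ms4a4b and of Ms4a4c occur in Ms4a4d or Gm8369. Ms4a4a, Ms4a7 and Ms4a8a share none.

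Estimated counts totalled 12806139 to 41769042 per library. Levels below are CPM, which are counts divided by TMM-scaled library sizes within a set, or TPM, which also corrects for length. Replicates correlated at r = 0.972 to 0.992 over genes, which are not independent replicates. The lowest value belonged to the CD11c+ group, whose libraries stood apart from each other in several Ms4a genes and cell type markers, as given below. Plasma cell markers, scaled over all 10 libraries, summed to 31117 to 40738 CPM in CD11c+ libraries. They summed to 11234 to 13770 CPM in CD11b+CD11c+ and 13737 to 16792 CPM in CD11b+ libraries. Of the sorted integrins, Itgam, which encodes CD11b, averaged 744 CPM in CD11b+CD11c+ cells, 743 CPM in CD11b+ cells and 33.2 CPM in CD11c+ cells. Itgax, which encodes CD11c, averaged 726 CPM in CD11b+CD11c+ cells, 524 CPM in CD11b+ cells and 865 CPM in CD11c+ cells. Itgam thus followed the labels, while Itgax RNA was present in all 3 groups. Itgax was called lower in CD11b+ than in CD11c+ cells (log2 fold change -0.72, edgeR adjusted p = 0.0065), and CD11b+CD11c+ cells were not called different from CD11b+ cells (adjusted p = 0.087) or from CD11c+ cells (adjusted p = 0.17). In bulk samples, fewer cells of a type and less RNA per cell cannot be told apart.

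Per unit of length, 3 patterns of level were seen across the 5 groups. The TPM values that follow are of transcripts with at least 500 coding bases, because an annotated 226-base transcript held 58.1 to 85.3% of the TPM of Ms4a4c on only 18.5% of its counts. Ms4a4a, Ms4a7 and Ms4a6d were highest in CD11b+CD11c+ and CD11b+ cells. Ms4a4c, Ms4a6b, Ms4a6c and Ms4a4b were highest in splenic MHCII+ cells, and Ms4a8a was highest in colonic MHCII+ cells. Levels between the MHCII+ and the integrin-sorted set are set side by side as a description and were not tested. The share of all genes whose groups do not overlap was not counted in any comparison. Each statement on overlap, here and below, therefore only describes the libraries.

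Ms4a4a was at 165 and 228 TPM in the CD11b+CD11c+ libraries, 172 and 185 TPM in the CD11b+ libraries and 51.2 and 39.1 TPM in the colonic MHCII+ libraries. It was at 32.5 and 39.4 TPM in splenic MHCII+ libraries and lowest in the CD11c+ ones, at 2.34 and 24.2 TPM. The first 2 of these groups overlapped, as did the colonic and splenic MHCII+ groups on this scale. Ms4a7 averaged 188 TPM in CD11b+CD11c+, 185 TPM in CD11b+, 35.3 TPM in colonic MHCII+, 23.2 TPM in CD11c+ and 4.33 TPM in splenic MHCII+ cells. The CD11c+ libraries of Ms4a7, at 3.89 and 42.5 TPM, spanned the range of both MHCII+ groups. Ms4a6d averaged 126 TPM in CD11b+CD11c+, 115 TPM in CD11b+, 26.5 TPM in colonic MHCII+, 11.3 TPM in splenic MHCII+ and 8.60 TPM in CD11c+ cells, and the last 2 groups overlapped.

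Ms4a6c reached the highest group mean of all 8 genes, 227 TPM in splenic MHCII+ cells. It averaged 153 TPM in CD11b+, 151 TPM in CD11b+CD11c+, 60.4 TPM in colonic MHCII+ and 29.9 TPM in CD11c+ cells. Ms4a6b followed nearly the same order at lower levels, with 128 TPM in splenic MHCII+, 84.7 TPM in CD11b+CD11c+, 80.3 TPM in CD11b+, 34.3 TPM in colonic MHCII+ and 17.3 TPM in CD11c+ cells. For both genes the CD11b+CD11c+ and CD11b+ libraries overlapped and no other neighbouring groups did. Ms4a4c averaged 107 TPM in splenic MHCII+, 26.7 TPM in CD11b+, 21.9 TPM in CD11b+CD11c+, 18.3 TPM in colonic MHCII+ and 1.90 TPM in CD11c+ cells. Its CD11b+CD11c+ and colonic MHCII+ libraries overlapped.

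Ms4a4b shared the splenic maximum, at 65.0 TPM, but was ordered differently below it. It averaged 21.7 TPM in CD11c+, 12.1 TPM in colonic MHCII+, 3.17 TPM in CD11b+ and 1.97 TPM in CD11b+CD11c+ cells, and no neighbouring groups overlapped. Ms4a8a averaged 47.3 TPM in colonic MHCII+, 16.5 TPM in CD11b+, 13.4 TPM in CD11b+CD11c+, 5.62 TPM in splenic MHCII+ and 3.14 TPM in CD11c+ cells. Its groups did not overlap either.

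**Figure D1:**
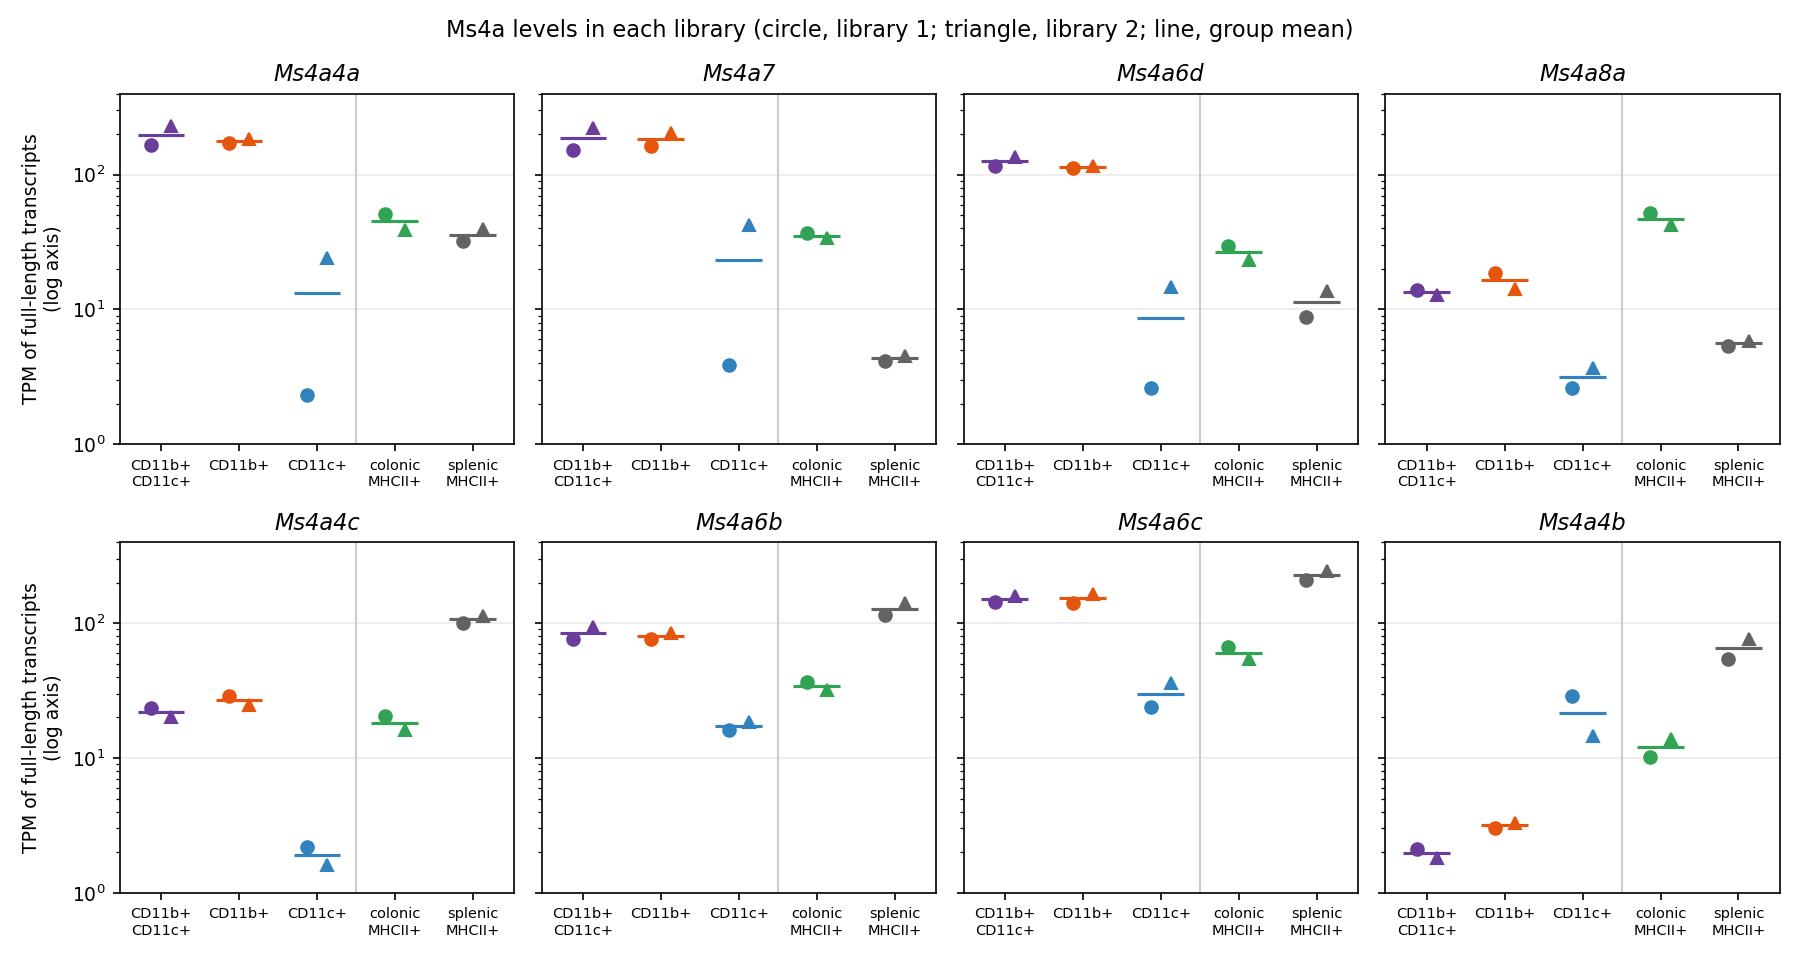
TPM of transcripts with at least 500 coding bases (log axis) for the 8 Ms4a genes in each library of the 5 groups, with circles for library 1, triangles for library 2 and lines at group means; a grey line parts the integrin-sorted colonic groups from the MHCII+ groups. Ms4a4a, Ms4a7 and Ms4a6d are highest in CD11b+CD11c+ and CD11b+ cells, Ms4a8a in colonic MHCII+ cells and the other 4 in splenic MHCII+ cells, and the CD11c+ libraries lie far apart for Ms4a4a, Ms4a7 and Ms4a6d.

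The sum over the 8 genes and its make-up differed between groups. Their summed TPM was 693 and 872 in CD11b+CD11c+ libraries, 716 and 798 in CD11b+ libraries and 82.3 and 156 in CD11c+ libraries. It was 304 and 254 in colonic MHCII+ and 528 and 641 in splenic MHCII+ libraries. Ms4a6c was the largest part in both MHCII+ groups, at 22.0 and 21.2% of the sum in the colonic and 39.5 and 38.4% in the splenic libraries. In the CD11b+CD11c+ and CD11b+ libraries the largest part was Ms4a4a or Ms4a7, at 23.8 to 26.1%. The CD11c+ libraries were unlike each other: Ms4a4b led in library 1 with 34.9% and Ms4a7 in library 2 with 27.3%.

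**Figure D2:**
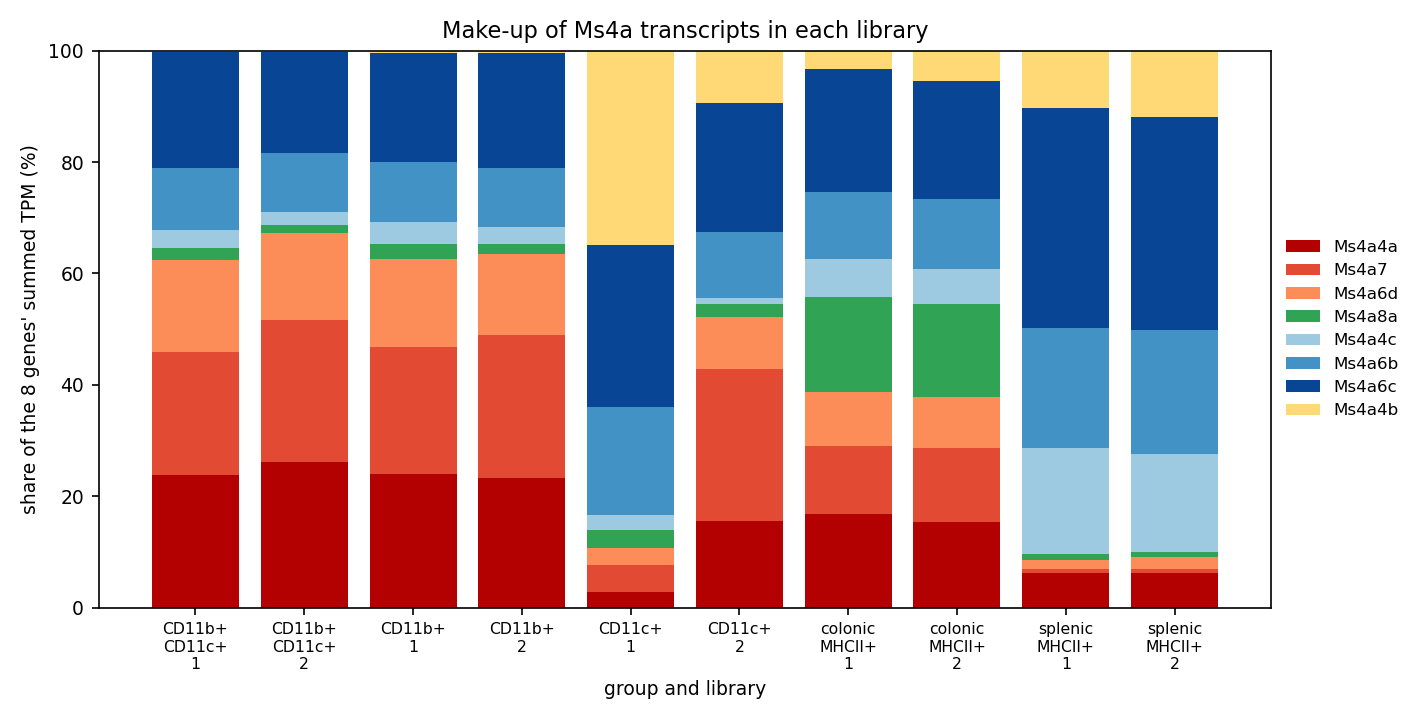
Stacked bars of each gene's share (%) of the summed TPM of the 8 Ms4a genes, 1 bar per library, grouped by population. Reds mark Ms4a4a, Ms4a7 and Ms4a6d, green Ms4a8a, blues Ms4a4c, Ms4a6b and Ms4a6c, and yellow Ms4a4b, which takes 34.9% of the bar in CD11c+ library 1; the largest part in both splenic bars is Ms4a6c, at 39.5 and 38.4%.

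Differences within each set were tested with edgeR's quasi-likelihood test, and a gene was called where its p, adjusted by Benjamini and Hochberg's method across the whole table, was under 0.05. Adjusted p-values are edgeR's except where DESeq2 or limma is named. Between colonic and splenic MHCII+ cells, 4 of the 8 were higher in the colon (Ms4a8a, Ms4a7, Ms4a6d and Ms4a4a) and 4 were lower (Ms4a4b, Ms4a4c, Ms4a6b and Ms4a6c). Over all 15076 genes tested in that comparison, 31.6% were called higher and 28.7% lower. The median log2 fold change was -0.62 over the 8 genes and 0.02 over all genes. Between CD11b+ and CD11c+ cells, 7 were higher in CD11b+ cells and Ms4a4b was lower, where 27.0% of all 14225 genes were called higher and 25.0% lower. The median was 2.63 over the 8 genes and -0.02 over all genes. Between CD11b+CD11c+ and CD11c+ cells, 7 were higher and Ms4a4b was lower, where 20.4% of all genes were called higher and 22.5% lower, and the median was 2.65 over the 8 genes and -0.09 over all genes. These comparisons share the CD11c+ libraries and so are not independent of each other.

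Between CD11b+CD11c+ and CD11b+ cells edgeR called 0 of the 8, and 0 had an unadjusted p under 0.05. DESeq2 and limma also called 0. Over all genes, 3.79% were called higher and 5.84% lower in CD11b+CD11c+ cells.

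**Figure D3:**
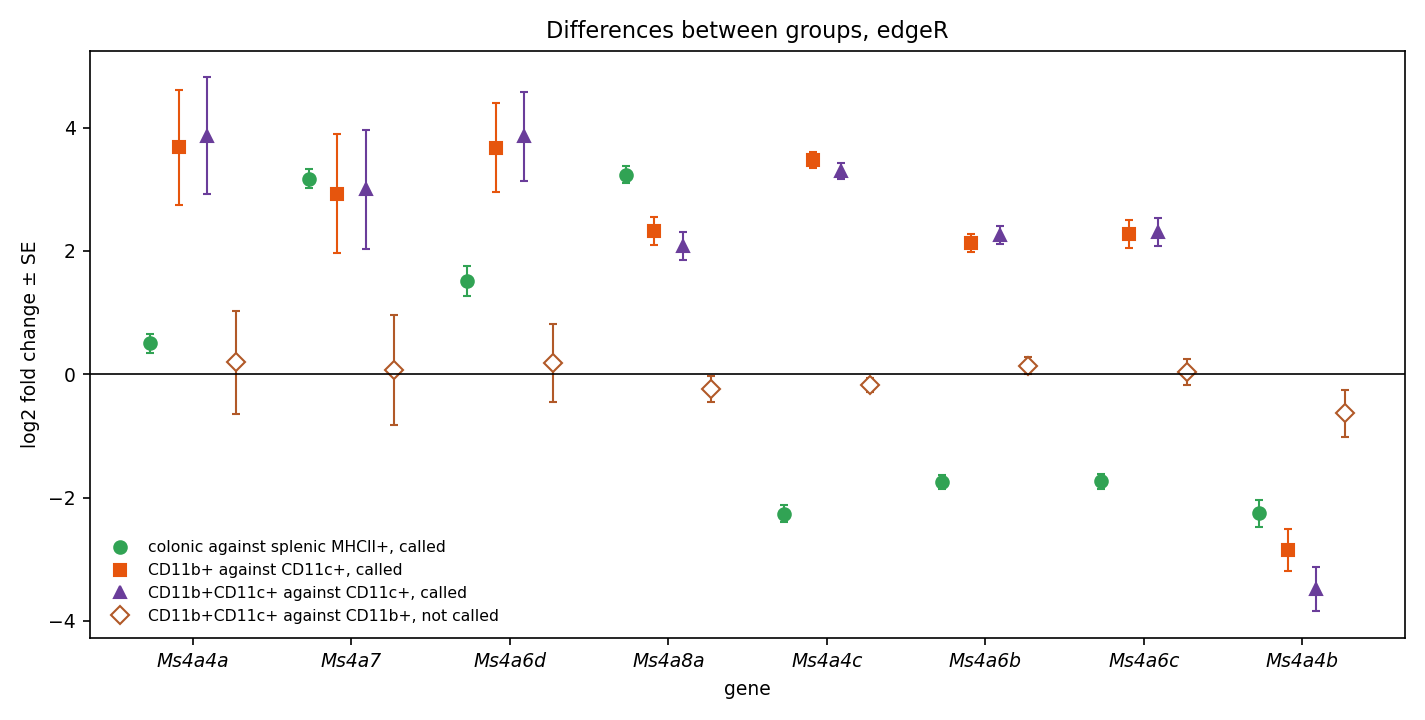
Log2 fold change with its standard error for each of the 8 genes in the 4 comparisons, from edgeR with 2 libraries per group; filled symbols were called at an adjusted p under 0.05 and open ones were not. Ms4a4b is the only gene below 0 against CD11c+ cells, at -2.85 and -3.48, and the open symbols of CD11b+CD11c+ against CD11b+ cells lie between -0.63 and 0.19.

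Among the genes highest in CD11b-positive cells, Ms4a7 was at 46.1 and 43.5 CPM in colonic MHCII+ libraries, against 4.79 and 5.14 CPM in splenic ones. The groups did not overlap, and the level was 9.03-fold higher in the colon (log2 fold change 3.17, SE 0.15, adjusted p = 1.1e-05). Ms4a6d was at 38.4 and 26.5 CPM in colonic MHCII+ libraries, against 9.49 and 13.3 CPM in splenic ones (log2 fold change 1.52, SE 0.25, adjusted p = 0.0023). These CPM include a 420-base transcript, left out of the TPM above, with 184 of 1154 counts in colonic library 1 and 0 in library 2. On transcripts of at least 500 coding bases the log2 fold change of Ms4a6d was 1.41 (adjusted p = 0.0023). Ms4a4a differed least, at 52.1 and 42.0 CPM in colonic MHCII+ libraries, against 30.8 and 35.8 CPM in splenic ones (log2 fold change 0.50, SE 0.15, adjusted p = 0.025). The call of Ms4a4a was not kept without colonic library 1 (log2 fold change 0.29, adjusted p = 0.12), without splenic library 1 (0.38, adjusted p = 0.15) or with all 10 libraries in 1 fit (0.48, adjusted p = 0.57). In limma on TPM its log2 fold change was 0.31 (adjusted p = 0.22), and with offsets for the deposited effective lengths in edgeR it was 0.49 (adjusted p = 0.073). Of the 14 macrophage markers listed, 11 were higher and 1 was lower in the colon. Their sum was 5229 to 5265 CPM in colonic and 1815 to 2002 CPM in splenic MHCII+ libraries. Epithelial markers were higher in the colon for 12 of 12 and plasma cell markers for 8 of 8. Stroma and endothelium markers were higher for 7 of 10 and lower for 3, and other lists were lower, as given below. Marker sums are on library sizes scaled over all 10 libraries, and the part of any of these cells in the Ms4a differences was not tested.

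Within the colon, the same 3 genes were much higher in both CD11b-positive populations than in CD11c+ cells. Ms4a4a was at 175 and 242 CPM in CD11b+CD11c+ libraries and 173 and 191 CPM in CD11b+ libraries, against 2.46 and 26.7 CPM in CD11c+ libraries. Its log2 fold change against CD11c+ cells was 3.87 (SE 0.94, adjusted p = 0.019) in CD11b+CD11c+ cells and 3.68 (SE 0.94, adjusted p = 0.019) in CD11b+ cells. Ms4a7, at 195 and 289 CPM in CD11b+CD11c+ libraries and 202 and 259.6 CPM in CD11b+ libraries, was at 5.004 and 56.2 CPM in CD11c+ libraries. No CD11c+ library reached the lowest library of either CD11b-positive group for any of these genes. The log2 fold change of Ms4a7 was 3.001 in CD11b+CD11c+ cells (SE 0.96, adjusted p = 0.047) and 2.93 in CD11b+ cells (SE 0.96, adjusted p = 0.043). Ms4a6d was at 129.9 and 154 CPM in CD11b+CD11c+ libraries and 121 and 128 CPM in CD11b+ libraries, against 2.92 and 17.2 CPM in CD11c+ libraries. It gave 3.86 (SE 0.72, adjusted p = 0.0077) in CD11b+CD11c+ cells and 3.68 (SE 0.72, adjusted p = 0.0073) in CD11b+ cells.

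The size of these differences rested on which CD11c+ library was used. Without CD11c+ library 1, the low one, the log2 fold changes of Ms4a4a, Ms4a6d and Ms4a7 in CD11b+CD11c+ cells were 2.96, 3.04 and 2.10, and in CD11b+ cells 2.76, 2.85 and 2.03. Without CD11c+ library 2 they were 6.39, 5.59 and 5.59 in CD11b+CD11c+ cells and 6.19, 5.40 and 5.52 in CD11b+ cells. All of these were still called. The calls of Ms4a4a and Ms4a7 were not kept when a library of the CD11b-positive group was left out, with adjusted p between 0.050 and 0.15, and that of Ms4a7 was not kept with effective-length offsets in edgeR (adjusted p = 0.063 in CD11b+CD11c+ cells and 0.057 in CD11b+ cells). Ms4a6d was called in each of these.

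The summed macrophage markers moved with these genes. They were at 19060 and 27355 CPM in CD11b+CD11c+ libraries, 17492 and 21815 CPM in CD11b+ libraries and 574 and 3930 CPM in CD11c+ libraries 1 and 2. Of the 14 markers, 13 were higher in CD11b+CD11c+ cells and 13 in CD11b+ cells than in CD11c+ cells. None was at 0 in any library. Adgre1, the macrophage antigen F4/80, was at 33.4 CPM in CD11c+ library 1 and 136 CPM in library 2. T cell markers went the other way, with a sum of 832 CPM in CD11c+ library 1 and 337 CPM in library 2, and those of innate lymphoid and NK cells were at 1506 and 509.8 CPM. Other lists went with the macrophage markers. Conventional dendritic cell 2 markers, at 77.9 and 145 CPM in CD11c+ libraries 1 and 2, were higher for 5 of 6 in CD11b+CD11c+ cells and for 4 in CD11b+ cells. Of 8 neutrophil markers tested, 5 were higher in CD11b+CD11c+ cells and 8 in CD11b+ cells. Of 5 eosinophil markers tested, 3 were higher and 1 lower in CD11b+CD11c+ cells, and 4 were higher in CD11b+ cells. The part of all these markers in the Ms4a differences was not tested.

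**Figure D4:**
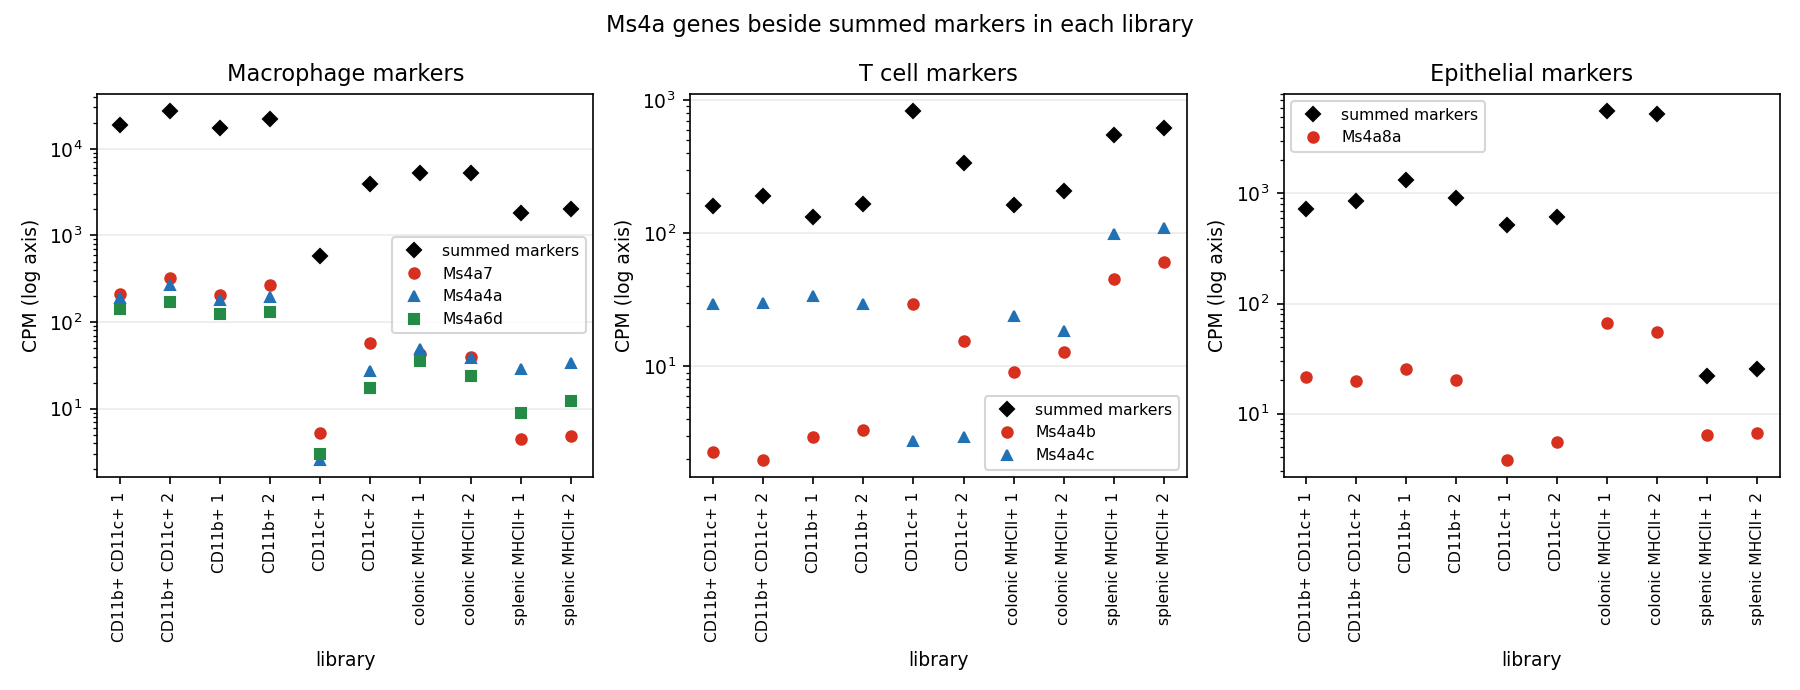
CPM (log axis) in each of the 10 libraries, scaled over all of them, for the summed macrophage, T cell and epithelial marker lists (black diamonds) and for the Ms4a genes set beside each list (coloured symbols). CD11c+ library 1 holds the lowest macrophage sum (574 CPM) with the lowest Ms4a4a and Ms4a6d and the highest T cell sum (832 CPM), and the colonic MHCII+ libraries hold the highest epithelial sum and the highest Ms4a8a.

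Ms4a6b, Ms4a6c and Ms4a4c were lower in colonic than in splenic MHCII+ cells and higher in both CD11b-positive colonic populations than in CD11c+ cells. Ms4a6c was at 60.1 and 51.4 CPM in colonic MHCII+ libraries, against 175 and 198 CPM in splenic ones (log2 fold change -1.74, SE 0.12, adjusted p = 5.3e-05). Ms4a6b was at 40.8 and 38.5 CPM in colonic MHCII+ libraries, against 122 and 143 CPM in splenic ones (log2 fold change -1.74, SE 0.11, adjusted p = 4.0e-05). Ms4a4c fell further, to 25.9 and 20.4 CPM in colonic MHCII+ libraries, against 106 and 117 CPM in splenic ones (log2 fold change -2.26, SE 0.14, adjusted p = 3.3e-05). The groups did not overlap for any of them. Neutrophil markers, at 337 to 446 CPM in colonic and 5909 to 8391 CPM in splenic MHCII+ libraries, were lower in the colon for 10 of 11. Monocyte markers, at 2865 to 2992 CPM in colonic and 4102 to 4243 CPM in splenic libraries, were lower for 7 of 10 and higher for 2. Conventional dendritic cell 1 markers were lower for 7 of 8 and higher for 1. B cell markers, at 110 to 118 CPM in colonic and 1727 to 1807 CPM in splenic libraries, were lower for 11 of 11. T cell markers were lower for 11 of 14 and higher for 1, and plasmacytoid dendritic cell markers were lower for 6 of 7 and higher for 1. Macrophage, epithelial and plasma cell markers went mostly the other way, as given above. The part of any of these cells in the 3 genes was not tested.

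Ptprc, which encodes the leukocyte marker CD45, was also lower in colonic MHCII+ cells, by 1.42 on the log2 scale (SE 0.10, adjusted p = 6.1e-05). Scaling counts to Ptprc, a choice made after that difference was seen, set the median log2 fold change of all genes at 1.44 and the share of calls that were higher in the colon at 94.7%, against 52.5% on TMM scaling. On that scale the log2 fold changes were -0.32 for Ms4a6b and Ms4a6c (adjusted p = 0.034 and 0.041), -0.84 for Ms4a4c (adjusted p = 0.0016) and -0.83 for Ms4a4b (adjusted p = 0.014). Those of Ms4a4a, Ms4a6d, Ms4a7 and Ms4a8a were 1.92, 2.94, 4.6 and 4.66. All 8 kept their direction and their call.

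In the integrin-sorted set these 3 genes had smaller standard errors than Ms4a4a, Ms4a7 and Ms4a6d. Ms4a6b was at 89.6 and 112 CPM in CD11b+CD11c+ libraries and 85.9 and 97.6 CPM in CD11b+ libraries, against 20.2 and 21.9 CPM in CD11c+ libraries. Its log2 fold change against CD11c+ cells was 2.26 in CD11b+CD11c+ cells (SE 0.14, adjusted p = 3.9e-04) and 2.12 in CD11b+ cells (SE 0.14, adjusted p = 3.1e-04). Ms4a6c was at 135 and 148 CPM in CD11b+CD11c+ libraries and 125 and 151 CPM in CD11b+ libraries, against 22.3 and 35.1 CPM in CD11c+ libraries. It gave 2.31 (SE 0.23, adjusted p = 0.0010) in CD11b+CD11c+ cells and 2.27 (SE 0.22, adjusted p = 8.0e-04) in CD11b+ cells. CD11c+ libraries 1 and 2 lay closer together for these genes than for Ms4a4a and Ms4a7. Monocyte markers summed to 3899 to 4174 CPM in CD11b+CD11c+, 3321 to 3545 CPM in CD11b+ and 1343 to 1535 CPM in CD11c+ libraries. Against CD11c+ cells, 5 of the 10 were higher and 5 lower in CD11b+CD11c+ cells, and 6 were higher and 1 lower in CD11b+ cells. Conventional dendritic cell 1 markers, at 1008 to 1522 CPM in CD11b+CD11c+, 417 to 446 CPM in CD11b+ and 4183 to 4460 CPM in CD11c+ libraries, were lower for 7 of 8 in CD11b+CD11c+ cells and for 8 in CD11b+ cells. Macrophage markers were higher for 13 of 14 in both CD11b-positive groups. Conventional dendritic cell 2 markers were higher for 5 of 6 in CD11b+CD11c+ cells and for 4 in CD11b+ cells. T cell markers were lower for 12 and 13 of 14. The part of any of these markers was not tested either.

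Ms4a4c and Ms4a4b, the closest copies in sequence, differed in opposite directions within the colon. Ms4a4c was at 27.2 and 27.3 CPM in CD11b+CD11c+ libraries and 32.9 and 28.8 CPM in CD11b+ libraries, against 2.65 and 2.90 CPM in CD11c+ libraries. It gave a log2 fold change of 3.30 in CD11b+CD11c+ cells (SE 0.13, adjusted p = 2.0e-04) and 3.48 in CD11b+ cells (SE 0.13, adjusted p = 1.1e-04). Ms4a4b was at 2.12 and 1.80 CPM in CD11b+CD11c+ libraries and 2.87 and 3.22 CPM in CD11b+ libraries, against 28.4 and 15.2 CPM in CD11c+ libraries. Its log2 fold change was -3.48 in CD11b+CD11c+ cells (SE 0.36, adjusted p = 0.0012) and -2.85 in CD11b+ cells (SE 0.34, adjusted p = 0.0014). Neither gene's CD11c+ libraries overlapped those of a CD11b-positive group. Per length, Ms4a4b averaged 21.7 TPM in CD11c+ cells, close to the 21.9 TPM of Ms4a4c in CD11b+CD11c+ cells.

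When the counts of Ms4a4b and Ms4a4c were summed and tested as 1 gene, the opposite differences largely cancelled. The sum gave a log2 fold change of 0.24 in CD11b+CD11c+ cells (adjusted p = 0.45) and 0.45 in CD11b+ cells (adjusted p = 0.16), both against CD11c+ cells. Ms4a4d and Gm8369, which share stretches with both genes, were not in the sum. Gm8369 averaged 52.0 CPM in CD11b+CD11c+, 50.4 CPM in CD11b+ and 49.0 CPM in CD11c+ cells and was called in none of the comparisons among them. It was lower in colonic than in splenic MHCII+ cells (log2 fold change -0.82, adjusted p = 0.0029). Between colonic and splenic MHCII+ cells the sum of Ms4a4b and Ms4a4c fell by 2.26, as each gene did alone. Ms4a4b was at 9.78 and 14.1 CPM in colonic MHCII+ libraries, against 48.4 and 64.7 CPM in splenic ones (log2 fold change -2.26, SE 0.22, adjusted p = 2.5e-04). Summing Ms4a6b, Ms4a6c and Ms4a6d likewise gave -1.37 between colonic and splenic MHCII+ cells (adjusted p = 2.0e-04), the direction of Ms4a6b and Ms4a6c and not that of Ms4a6d.

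T cell markers stood beside Ms4a4b in both sets. Their sum was 165 and 208 CPM in colonic MHCII+ libraries, against 552 and 619 CPM in splenic ones, with 11 of 14 markers lower and 1 higher in the colon. Against CD11c+ cells, 12 of the 14 were lower in CD11b+CD11c+ cells and 13 in CD11b+ cells. The sums there were 160 and 192 CPM in CD11b+CD11c+ libraries, 134 and 167 CPM in CD11b+ libraries and 832 and 337 CPM in CD11c+ libraries. Cd3e, a chain of the T cell receptor complex, was at 51.9 and 12.7 CPM in CD11c+ libraries 1 and 2 and at 15.1 and 22.6 CPM in splenic MHCII+ libraries. Conventional dendritic cell 1 markers went the same way, at 4183 to 4460 CPM in CD11c+ and 2369 to 2884 CPM in splenic MHCII+ libraries. In MHCII+ cells, 7 of these 8 markers were lower and 1 higher in the colon. Against CD11c+ cells, 7 were lower in CD11b+CD11c+ cells and 8 in CD11b+ cells. The part of T cells or of dendritic cells in the level of Ms4a4b was not tested.

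Ms4a8a was highest in colonic MHCII+ cells. It was at 70.6 and 60.0 CPM in colonic MHCII+ libraries, against 6.78 and 7.07 CPM in splenic ones (log2 fold change 3.24, SE 0.14, adjusted p = 9.4e-06). In the integrin-sorted set it was at 19.7 and 18.05 CPM in CD11b+CD11c+ libraries and 25.0 and 19.6 CPM in CD11b+ libraries, against 3.64 and 5.37 CPM in CD11c+ libraries. It gave 2.08 in CD11b+CD11c+ cells (SE 0.23, adjusted p = 0.0014) and 2.32 in CD11b+ cells (SE 0.23, adjusted p = 7.6e-04). Every library of the CD11b-positive groups was above every CD11c+ library, a description without the share of all genes that do so.

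Epithelial markers were also highest in colonic MHCII+ libraries. All 12 listed were higher there than in splenic ones, with sums of 5622 and 5317 CPM in colonic libraries and 21.8 and 25.5 CPM in splenic ones. Of these markers, Atoh1 and Spdef were at 0 in both splenic libraries and Fabp2 in 1. Krt8, an epithelial keratin, was at 1779 and 1503 CPM in colonic and 0.811 and 2.03 CPM in splenic MHCII+ libraries. In the integrin-sorted set the sums were 726 and 853 CPM in CD11b+CD11c+ libraries, 1327 and 904 CPM in CD11b+ libraries and 514 and 615 CPM in CD11c+ libraries. Against CD11c+ cells, 2 of the 12 were higher in CD11b+CD11c+ cells and 8 in CD11b+ cells. Over all genes, 20.4% and 27.0% were called higher in these comparisons. The median log2 fold change of the epithelial list in CD11b+CD11c+ cells was 0.48, against -0.09 over all genes. Macrophage markers were higher for 11 of 14 and lower for 1 in colonic MHCII+ cells, and higher for 13 in each CD11b-positive group. Their sum was 5229 to 5265 CPM in colonic MHCII+ libraries. It was 19060 and 27355 CPM in CD11b+CD11c+ libraries and 17492 and 21815 CPM in CD11b+ libraries. Other lists also differed. In colonic against splenic MHCII+ cells, plasma cell markers were higher for 8 of 8, and stroma and endothelium markers were higher for 7 of 10 and lower for 3. Against CD11c+ cells, plasma cell markers were lower for 6 and higher for 1 in both CD11b-positive groups. Stroma and endothelium markers were lower for 6 in CD11b+CD11c+ cells and higher for 8 in CD11b+ cells. The part of any of these lists was not tested.

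Between CD11b+CD11c+ and CD11b+ cells the log2 fold changes ran from -0.63 for Ms4a4b (SE 0.38, adjusted p = 0.36) to 0.19 for Ms4a4a (SE 0.83, adjusted p = 0.91). Ms4a7 gave 0.07 (SE 0.89), Ms4a6d 0.19 (SE 0.63), Ms4a6b 0.14 (SE 0.14) and Ms4a6c 0.04 (SE 0.21). Ms4a4c gave -0.18 (SE 0.11) and Ms4a8a -0.24 (SE 0.21). In CPM, the libraries of both groups overlapped for Ms4a4a, Ms4a6b, Ms4a6c, Ms4a7 and Ms4a8a and not for Ms4a4b, Ms4a4c and Ms4a6d. In TPM, those of Ms4a6d overlapped too and those of Ms4a8a did not. The share of all genes without overlap was not counted, so these overlaps only describe the libraries and are no sign of a difference. With standard errors up to 0.89, differences of the size of 1 log2 unit in Ms4a4a and Ms4a7 were not detectable with these libraries. The macrophage markers did not pass either, with 0 of 14 called by edgeR and 2 higher at an unadjusted p under 0.05, while conventional dendritic cell 1 markers were higher in CD11b+CD11c+ cells for 6 of 8.

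Across the 10 libraries some of the genes ran closely together. Pearson's r of log2 CPM, on points that share groups of 2 and a common scaling, was 0.97 for Ms4a4a with Ms4a6d, 0.94 for Ms4a6d with Ms4a7 and 0.85 for Ms4a4a with Ms4a7. It was 0.99 for Ms4a6b with Ms4a6c, and 0.88 for Ms4a4c with each of these. Between these sets it was lower, from 0.46 to 0.72 for Ms4a4a with Ms4a4c, Ms4a6b and Ms4a6c, from 0.26 to 0.56 for Ms4a6d with them, and from -0.063 to 0.29 for Ms4a7 with them. Ms4a4b ran against Ms4a4a, Ms4a6d and Ms4a7, with -0.81 for Ms4a4a, -0.93 for Ms4a6d and -0.97 for Ms4a7, and showed little relation to Ms4a4c (0.065). Ms4a8a correlated with no other member above 0.59.

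Among 10398 other genes with an established symbol and at least 5 CPM on average, those with the most similar pattern over the 10 libraries were found for each member by the same measure. For Ms4a4a they were Msr1, a macrophage scavenger receptor (r = 0.998), Adgre1 (0.995) and Pla2g15, a lysosomal phospholipase (0.995). For Ms4a7 they were Plau, the protease urokinase (0.995), Plxna4, a semaphorin receptor (0.992), and C1qa, a chain of complement C1q (0.991), and for Ms4a6d Ctsb, the protease cathepsin B (0.989), Abca1, a cholesterol exporter (0.989), and Mertk, a receptor for dying cells (0.989). For Ms4a4b they were Lat, an adaptor of T cell receptor signalling (0.991), Ablim1 (0.987) and Cnst (0.986). Lat was at 30.97 and 10.9 CPM in CD11c+ libraries 1 and 2 and at 36.4 and 47.4 CPM in splenic MHCII+ libraries.

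For Ms4a4c the most similar were Fhod1, an actin-organising formin (0.992), Camkk2, a calcium-dependent kinase (0.986), and Lyl1, a transcription factor of blood cells (0.986). For Ms4a6b they were Abcc5, a transporter (0.986), Ddx60, an interferon-induced helicase (0.986), and Pnpla7, a lysophospholipase (0.986). For Ms4a6c they were Slc43a2, an amino acid transporter (0.988), Ifih1, a sensor of viral RNA (0.987), and D6Wsu163e (0.984). For Ms4a8a they were Trpm4, a cation channel (0.996), Gcg, the proglucagon gene of enteroendocrine cells (0.990), and Pfkl, a glycolytic enzyme (0.988). Gcg was at 25.7 and 14.6 CPM in colonic MHCII+ libraries, against 0.592 and 0.536 CPM in splenic ones, and was at 4.85 and 6.09 CPM in CD11b+CD11c+, 5.75 and 4.36 CPM in CD11b+ and 0.0790 and 0 CPM in CD11c+ libraries.

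Of 14 other genes listed from the MS4A and related TMEM176 families, 12 were in the files. Of these, 7 passed the count filter in the MHCII+ set, of which 3 were higher and 2 lower in colonic than in splenic cells. In the integrin-sorted set 5 passed. Of these, 3 were higher and 1 lower in CD11b+CD11c+ than in CD11c+ cells, 4 were higher and 0 lower in CD11b+ than in CD11c+ cells, and 0 were higher and 1 lower in CD11b+CD11c+ than in CD11b+ cells. Ms4a14, the gene next to Ms4a7, averaged 14.5 CPM in colonic MHCII+ cells and 1.62 CPM in splenic ones (log2 fold change of 3.18, adjusted p = 4.9e-04). It averaged 122 CPM in CD11b+CD11c+ and 103 CPM in CD11b+ cells, against 10.1 CPM in CD11c+ cells, with log2 fold changes of 3.64 (adjusted p = 0.014) and 3.40 (adjusted p = 0.014). Ms4a4d was the one gene of the families called between the CD11b-positive groups, at 1.90 CPM in CD11b+CD11c+ and 12.5 CPM in CD11b+ cells (log2 fold change -2.71, SE 0.24, adjusted p = 0.0025). Stroma and endothelium markers were also lower in CD11b+CD11c+ than in CD11b+ cells for 6 of 10, neutrophil markers for 6 of 8 tested and eosinophil markers for 4 of 5 tested. In these lists 0 were higher, and their part in Ms4a4d was not tested. Ms4a1, the CD20 gene, was at 3.66 CPM in colonic against 149 CPM in splenic MHCII+ cells (log2 fold change -5.36, SE 0.16, adjusted p = 3.3e-06), beside B cell markers of which all 11 were lower in the colon. Ms4a12, which lies in the same cluster but was not on the list, averaged 3.05 CPM in colonic MHCII+ cells, was at 0 in both splenic libraries and was called higher in the colon (adjusted p = 8.4e-04). It averaged 0.650 CPM in CD11b+CD11c+, 0.633 CPM in CD11b+ and 0.559 CPM in CD11c+ cells and was called in none of the comparisons among them.

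Of 6 genes whose products have been reported as partners of MS4A proteins, 5 passed the filter in each set. In colonic against splenic MHCII+ cells 3 were higher and 1 lower. Trem2, a lipid-sensing receptor of macrophages, averaged 8.60 CPM in the colon and 2.29 CPM in the spleen (log2 fold change of 1.91, adjusted p = 0.0018), and Clec7a, which encodes Dectin-1, averaged 203 CPM in the colon and 99.8 CPM in the spleen (log2 fold change of 1.02, adjusted p = 0.0015). Trem2 averaged 24.7 CPM in CD11b+CD11c+ and 19.6 CPM in CD11b+ cells, against 1.52 CPM in CD11c+ cells, and was higher in both (log2 fold change 4.18 and 3.84, adjusted p = 0.0063 and 0.0068). Tnfrsf18, which encodes GITR, was the only partner lower in these groups, at 13.3 CPM in CD11b+CD11c+ and 8.41 CPM in CD11b+ cells, against 62.9 CPM in CD11c+ cells (log2 fold change -2.24 and -2.91, adjusted p = 0.0044 and 0.0017). That is the direction of Ms4a4b there, while between colonic and splenic MHCII+ cells Tnfrsf18 was higher, at 45.6 CPM in the colon and 14.8 CPM in the spleen (log2 fold change of 1.62, adjusted p = 3.4e-04), where Ms4a4b was lower. Between CD11b+CD11c+ and CD11b+ cells edgeR called 0 of the partners, and 0 had an unadjusted p under 0.05 in either direction.

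Promoter sequence was available from RefSeq (GRCm38.p6, 250 bases before to 50 after a start) for 7 of the 8 genes, in 8 stretches, since Ms4a7 had more than 1. Those of Ms4a4b and Ms4a4c are printed because these genes are near copies with opposite patterns in the colon. Both are on the plus strand and are shown 5′ to 3′, with GAGGAA, a short core of PU.1 and other Ets factor sites, in capitals. The stretch of Ms4a4b is chr19:11443308-11443607 and that of Ms4a4c is chr19:11407411-11407710.
Ms4a4b: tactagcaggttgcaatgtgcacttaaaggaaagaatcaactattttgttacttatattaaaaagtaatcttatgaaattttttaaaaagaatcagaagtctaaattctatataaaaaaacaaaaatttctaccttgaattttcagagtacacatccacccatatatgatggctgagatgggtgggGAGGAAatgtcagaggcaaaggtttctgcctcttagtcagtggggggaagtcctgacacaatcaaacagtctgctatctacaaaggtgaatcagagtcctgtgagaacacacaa
Ms4a4c: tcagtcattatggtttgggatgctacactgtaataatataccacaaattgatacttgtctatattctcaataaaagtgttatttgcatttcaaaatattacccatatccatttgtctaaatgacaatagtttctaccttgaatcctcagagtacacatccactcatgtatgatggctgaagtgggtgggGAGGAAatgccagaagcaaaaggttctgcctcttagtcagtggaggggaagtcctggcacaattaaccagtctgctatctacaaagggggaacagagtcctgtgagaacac
The aligned promoters were identical at 225 of 289 aligned bases (77.9%). GAGGAA, read on both strands, starts at -63 in Ms4a4b and at -60 in Ms4a4c, in a numbering that skips no number between negative and positive positions. It also occurs in a stretch of Ms4a7, against 28.3% of all 32851 promoters. The AP-1 motif TGANTCA occurs in stretches of Ms4a4b, Ms4a7 and Ms4a8a, against 7.81% of all promoters, and the RUNX motif TGTGGT in that of Ms4a4c, against 16.8%. The C/EBP motif TTGCNNAA and the GAS motif TTCNNNGAA were found in none of the 8 stretches, and occur in 10.8% and 8.30% of all promoters. The ISRE and the Ets-IRF composite, which can share letters with GAGGAA, were also found in none, against 3.44% and 2.72%. A match is only a description of these letters.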

How the data were processed

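Per the file headers, each of the 10 deposited tables gives kallisto's estimated counts, not normalized, its TPM, computed on effective lengths, and the length and effective length of each of 66760 transcripts in bases. Per the submitters' processing notes, the tools were kallisto 0.44.0 and sleuth, and the build was mm10. The index release and strand setting were not given in the sources used here. Among deposited lengths, 88.9% are multiples of 3, so they are coding lengths. Transcripts were matched by identifier to GENCODE M21 (65747, or 98.5%), summed per gene and rounded. Unmatched transcripts, with 0.532 to 0.912% of each library's counts, were left out. Reads matching more than 1 transcript are apportioned by kallisto, so close paralogs can exchange reads.

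The 4 MHCII+ and the 6 integrin-sorted libraries were fitted apart in edgeR 4.0.16 (R 4.3.3) with filterByExpr, TMM and group as the only term. After filtering, 15076 and 14225 genes were tested, with a common biological coefficient of variation of 0.180 and 0.174. Standard errors were derived from each log2 fold change with its F. A chi-square of replicate counts gave 10.8 to 38.5 per gene, so replicates differed beyond counting noise. Numbers of splenic libraries follow accession order. The test was tried on simulated data.

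Named were all 8 members, gate genes, listed families, partners and markers, and for each member the 3 other genes with the highest Pearson correlation of log2(CPM + 1). The 8 members and all lists were chosen with earlier results of these data known, so no list is independent evidence. Alternatives used DESeq2 1.42.0 (size factors, and its own test), limma 3.58.1 on log2(TPM + 1) and log2(TPM + 0.1) for genes with at least 1 TPM in 2 libraries, effective-length offsets, no count filter, 1 fit over all 10 libraries, a replicate block, left-out libraries, summed paralogs and, added after seeing the data, transcripts of at least 500 coding bases and scaling to Ptprc.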

Additional observations from a re-analysis of the deposited data

How the results depend on the processing

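Over 15 alternatives for each comparison of integrin-sorted groups and 14 for the MHCII+ comparison, 113 of 120 log2 fold changes kept direction and side of the threshold for CD11b+CD11c+ against CD11c+, 113 of 120 for CD11b+ against CD11c+, 113 of 120 for CD11b+CD11c+ against CD11b+, and 105 of 112 for colonic against splenic MHCII+ cells. With paralog counts summed, the count lower against CD11c+ cells was 0 for CD11b+CD11c+ and 0 for CD11b+ cells, and the value of Ms4a4b turned to 0.24 and 0.45, and that of Ms4a6d between colonic and splenic MHCII+ cells to -1.37, since the sums hold opposite differences. Between CD11b+CD11c+ and CD11b+ cells, where nothing was called, limma gave -0.013 for Ms4a6c and -0.015 for Ms4a7 with either pseudocount, and leaving out 1 library gave -0.087 to 0.28 for Ms4a6c and -0.16 to 0.36 for Ms4a7; the cause was not tested. Leaving out 1 library gave 5 to 7 genes higher and 1 lower against CD11c+ cells in both comparisons, 3 to 4 higher and 4 lower in the colon against the spleen, and 0 between CD11b+CD11c+ and CD11b+ cells; an arm left with 1 library was assumed to vary like the others. Scaling to Ptprc set the share of calls that were higher in CD11b+CD11c+ than in CD11c+ cells at 59.8%, against 47.6% on TMM scaling.

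Titles of the integrin-sorted libraries share replicate numbers, but deviations of same-numbered libraries correlated at 0.40, -0.040 and 0.011 for CD11c+ with CD11b+CD11c+, CD11c+ with CD11b+, and CD11b+CD11c+ with CD11b+ cells. The libraries were therefore not treated as paired, although the macrophage sum was higher in library 2 in all 3 groups. With a replicate block, the counts were 7 higher and 1 lower in both comparisons against CD11c+ cells and 0 between CD11b+CD11c+ and CD11b+ cells. The block changed no call. No paired analysis was possible for the MHCII+ libraries because both splenic titles carry 1 number. In the integrin-sorted set, with 2 libraries per group and standard errors up to 0.96 for Ms4a7, small differences in Ms4a4a, Ms4a6d and Ms4a7 could not be seen.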
